A study of Mus musculus with 4 samples.

Results

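Fibronectin and 7 matricellular proteins were followed at the RNA level in nuclei of mouse aorta: Fn1, the thrombospondins Thbs1 and Thbs2, tenascin C (Tnc), periostin (Postn), Sparc, versican (Vcan) and spondin 1 (Spon1). The members were taken by gene symbol, and each of the 8 symbols matched a single row among the 32285 genes of the deposited count matrices. The data were droplet single-nucleus RNA-seq libraries from 4 groups of ApoE-/- mice, a strain prone to atherosclerosis, and all 4 groups also carried a CA1 knockin, so none of them lacked that allele. The first group had no treatment (the untreated library) and the second received high-fat food (the high-fat library). The third was fed high-fat food and given methoxazolamide (MTZ) once atherosclerosis was established (MTZ-after), and the fourth had both from the same time (MTZ-simultaneous). The labels describe MTZ as an inhibitor of CA1, a carbonic anhydrase. Each group was 1 library, and the labels do not say how many mice entered it.

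Fibronectin is a large glycoprotein that cells assemble into fibrils through integrins, and on which collagen and other matrix proteins are laid down. Matricellular proteins sit in the same matrix but act mainly as signals: they bind integrins, CD47, CD36, growth factors and proteases, and are known for being low in the quiescent arterial wall and more abundant in injured or remodelling tissue. In atherosclerosis, fibronectin and thrombospondin 1 are known in lesion-prone, disturbed-flow endothelium, while tenascin C, periostin and versican are known as products of smooth muscle and fibroblast cells that lay down lesion matrix.

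The libraries held 22413, 38114, 28116 and 19335 nuclei in the order of these groups, with 69201159, 50358151, 31517272 and 37962370 unique molecular identifiers (UMIs, the counted transcripts) and medians of 2026, 969, 827 and 1420 UMIs per nucleus. Between 119 and 376 barcodes were shared by any 2 libraries, at most 1.34% of the smaller one. After filtering, 99716 nuclei fell into 24 clusters, which were assigned to classes by marker genes with the 8 members left out of the clustering. The tissue around the vessel differed between libraries: brown adipocyte-like nuclei held 51.1%, 3.03%, 13.3% and 9.89% of UMIs in that order, adrenal cortex-like nuclei 19.3% in the MTZ-after library and at most 0.0133% in the others, and mesothelial-like nuclei between 0.143% and 14.0%. The classes examined most closely were smooth muscle-like nuclei (513, 612, 2139 and 1479), fibroblast-like nuclei (1941, 1078, 1849 and 1539), endothelial-like nuclei (3236, 570, 3061 and 2313) and macrophage-like nuclei (1395, 16764, 2190 and 1600). Their own markers were at least 2-fold above the other nuclei for 12 of 12, 12 of 14, 12 of 12 and 11 of 16 genes. A cluster led by Mmp13 and Tnfrsf11b (135, 2288, 273 and 353 nuclei) met the rule for no class and is called by those genes.

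Across all nuclei, Thbs1, Fn1 and Tnc were the members whose share of the RNA was at least 2-fold higher in the high-fat than in the untreated library. Levels are given as counts-per-million (CPM) of all UMIs in the nuclei named, and always in the order of the groups above, from no treatment to simultaneous MTZ. Fn1 stood at 478, 1370, 780 and 1205 CPM, Thbs1 at 79.5, 305, 190 and 170 CPM, and Tnc at 23.1, 50.4, 29.4 and 33.3 CPM. For these 3 genes the untreated library was the lowest and the high-fat library the highest. The remaining members differed less: Sparc was at 143, 252, 201 and 230 CPM, Postn at 36.5, 55.0, 59.2 and 75.9 CPM, Vcan at 53.7, 79.6, 74.8 and 82.5 CPM, Thbs2 at 6.73, 11.5, 8.24 and 8.69 CPM, and Spon1 at 235, 308, 260 and 331 CPM. The untreated library was the lowest for all 8 members, whereas Postn, Vcan and Spon1 were highest in the MTZ-simultaneous library. Because each group was 1 library, no difference has a replicate check and no test was made. Intervals below are exact 95% intervals for counting error only, and calls rest on size alone: a CPM ratio of 2 or more counts as higher and of 0.5 or less as lower, provided that the library with more held 50 counts.

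**Figure D1:**
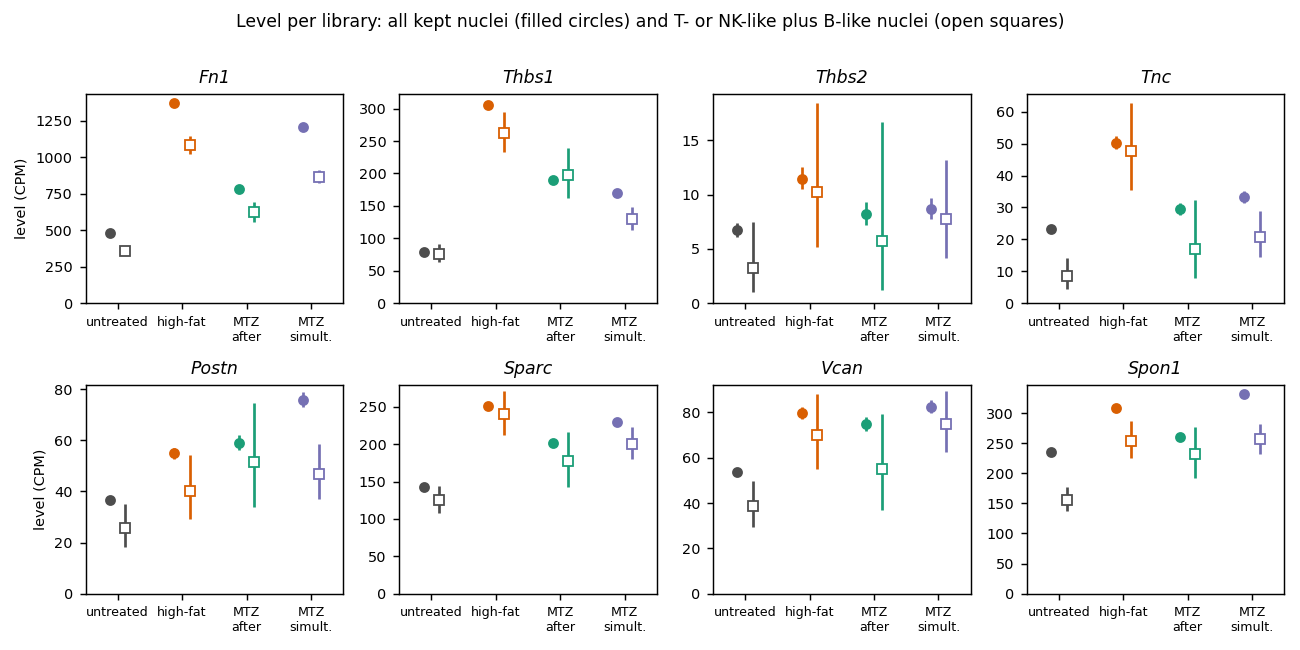
Level of each of the 8 genes (vertical axes, linear from 0) over all kept nuclei of each library, in CPM (filled circles), beside the level in T or NK-like plus B-like nuclei (open squares); bars are exact 95% Poisson intervals for counting error only. Fn1 lay between 478 and 1370 CPM, with the untreated library lowest and the high-fat library highest, and Thbs1 and Tnc had the same lowest and highest library.

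A background level was read in T or NK-like and B-like nuclei, summed as lymphoid nuclei, in which free RNA is the usual source of matrix transcripts. That level was itself different between libraries: lymphoid Fn1 was 357, 1083, 624 and 867 CPM, lymphoid Thbs1 76.5, 263, 198 and 130 CPM, and lymphoid Tnc 8.36, 47.7, 17.1 and 20.8 CPM. It was highest in the high-fat library for these 3 genes, so the class levels of the members are set beside the lymphoid level of the same library. The lymphoid level was itself imprecise where counts were few, with as few as 3 counts for Thbs2 in the MTZ-after library.

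Fn1 (chromosome 1, 71585520 to 71653200, minus strand, GRCm38), which encodes fibronectin, was higher in the Mmp13 Tnfrsf11b cluster than in any of the 4 main classes, in every library. In that cluster it stood at 5569 CPM (5395 to 5746), 2885 CPM (2840 to 2930), 3847 CPM (3675 to 4025) and 3822 CPM (3705 to 3942), which was 15.6, 2.66, 6.17 and 4.41 times the lymphoid level of the same library. Smooth muscle-like nuclei had 574, 1257, 966 and 1101 CPM, fibroblast-like nuclei 970, 1205, 955 and 1351 CPM, and endothelial-like nuclei 669, 1315, 746 and 1037 CPM. These 3 classes lay above the lymphoid level in every library, but in the high-fat library by no more than 1.21-fold. Macrophage-like nuclei, at 278, 1049, 565 and 831 CPM, lay at or under the lymphoid level in every library. Thinned to 500 UMIs per nucleus, the share of nuclei with an Fn1 UMI in the Mmp13 Tnfrsf11b cluster was 54.8%, 64.6%, 72.9% and 62.3% (86.7%, 93.1%, 93.0% and 93.2% without thinning, at medians of 2875, 1678, 1141 and 1803 UMIs), against 14.7%, 35.2%, 27.0% and 43.4% in thinned T or NK-like nuclei. The share was thus lowest in the untreated library, in which the CPM of the cluster was highest. The counts come from transcript ends and cannot tell the splice forms of fibronectin apart.

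Thbs1 (chromosome 2, 118111876 to 118127133, plus strand), the thrombospondin that binds CD47 and CD36 and can activate latent TGF-beta, was likewise higher in the Mmp13 Tnfrsf11b cluster than in the main classes. It stood there at 924 CPM (854 to 998), 471 CPM (453 to 490), 459 CPM (401 to 523) and 264 CPM (234 to 297), again with the untreated library highest. Endothelial-like nuclei had 129, 397, 182 and 208 CPM, smooth muscle-like nuclei 94.8, 259, 280 and 173 CPM, fibroblast-like nuclei 57.4, 243, 173 and 159 CPM, and macrophage-like nuclei 62.3, 250, 147 and 113 CPM. In the high-fat library the endothelial level was 1.51 times the lymphoid one, whereas the smooth muscle, fibroblast and macrophage levels were 0.987, 0.923 and 0.95 times it. Thbs2 (chromosome 17, 14665500 to 14694235, minus strand), a relative that inhibits angiogenesis and helps clear matrix proteases, was sparse. Its level in fibroblast-like nuclei was 21.5, 19.8, 17.7 and 16.3 CPM on 95, 29, 33 and 48 counts, with intervals that overlapped between all libraries. In the Mmp13 Tnfrsf11b cluster it was 22.9, 21.4, 37.0 and 22.8 CPM, and smooth muscle-like nuclei held only 6 to 22 counts per library. Mesothelial-like nuclei had Thbs2 at 29.3 CPM in the untreated, 17.6 CPM in the MTZ-after and 7.81 CPM in the MTZ-simultaneous library. Lymphoid Thbs2 was 3.2, 10.3, 5.7 and 7.7 CPM on 5, 11, 3 and 13 counts.

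**Figure D2:**
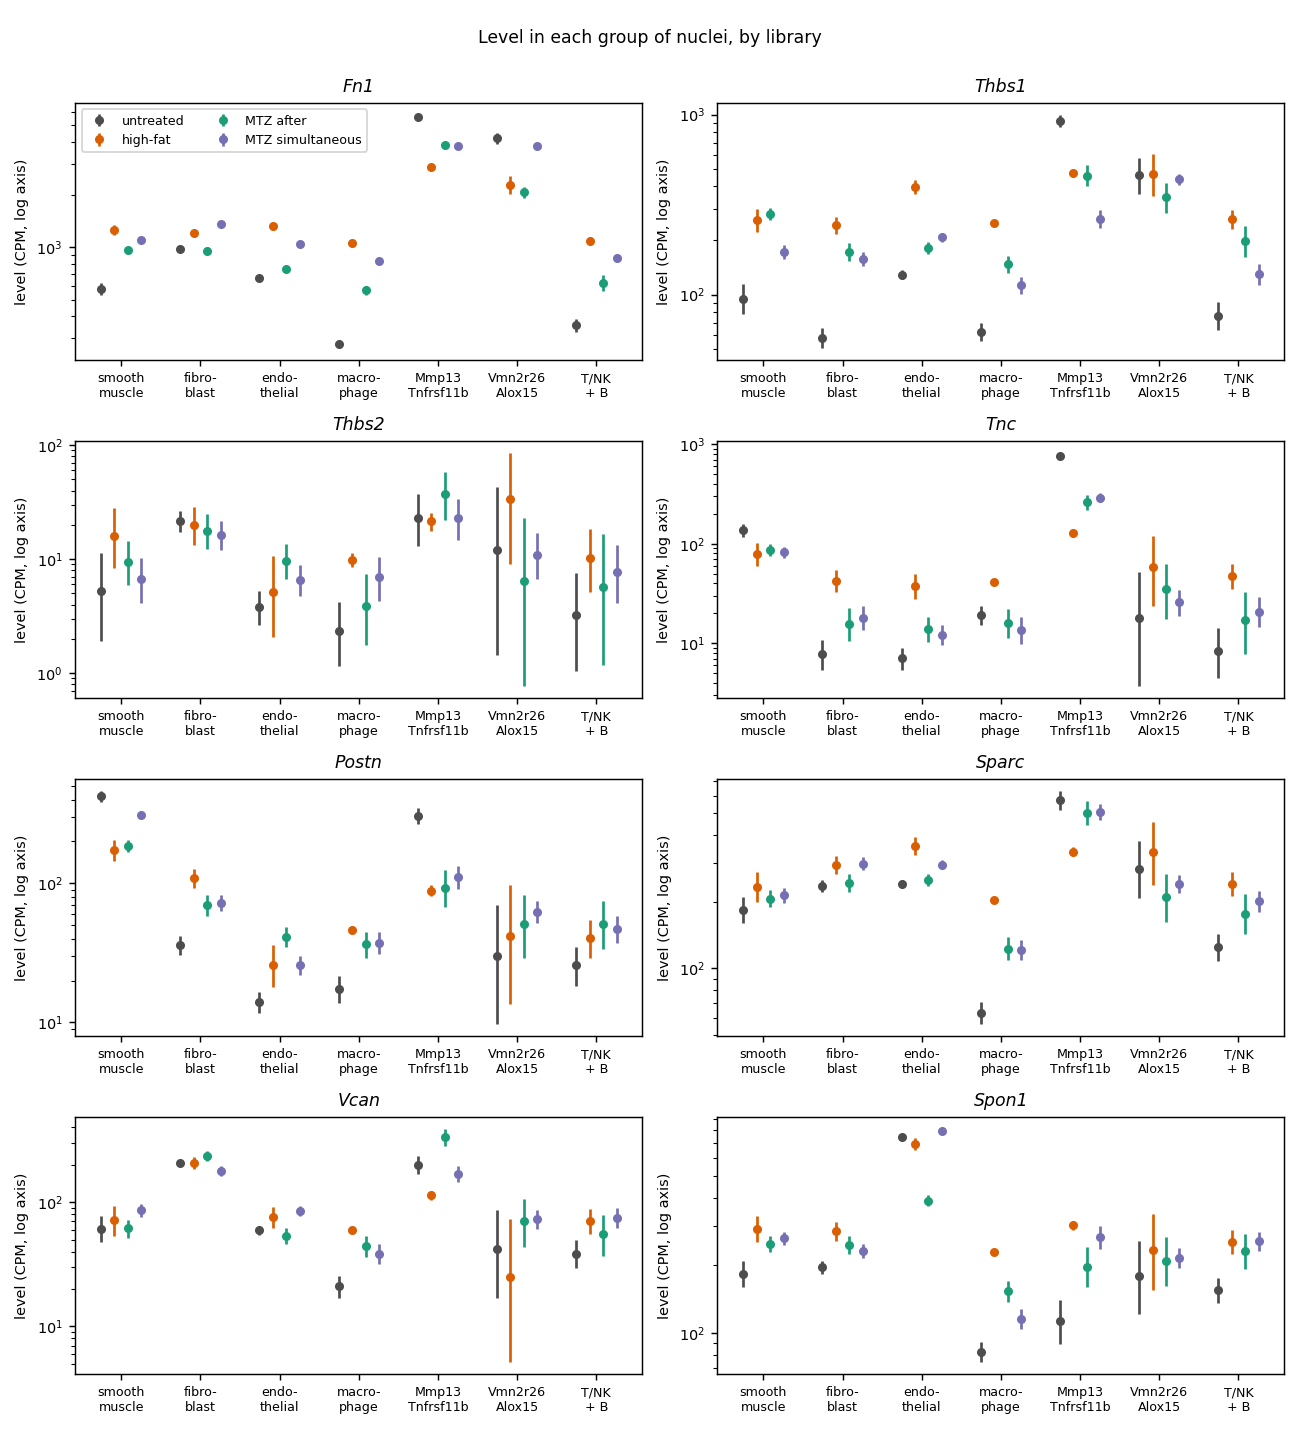
Level of each gene in each marker-defined class and library, in CPM on a log axis, with exact 95% Poisson intervals for counting error only. Among the groups shown, Tnc and Postn stand out in smooth muscle-like nuclei and the Mmp13 Tnfrsf11b cluster. Vcan and Thbs2 do so in fibroblast-like nuclei and that cluster, and Spon1 in endothelial-like nuclei.

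The upstream sequences of Tnc, Postn, Thbs2 and Vcan are shown because each of these members had a class with more than 5-fold its lymphoid level in the untreated library, which Sparc did not. They come from the RefSeq promoter table (GRCm38.p6), which matched 5 of the 8 members and held no entry for Thbs1, Fn1 or Spon1. Each line gives the 250 bases before an annotated start site, 5′ to 3′ on the strand of the gene, at chr4:64047016-64047265 (minus strand) for Tnc, chr3:54360857-54361106 (plus strand) for Postn, chr17:14694263-14694512 (minus strand) for Thbs2 and chr13:89742513-89742762 (minus strand) for Vcan. Another start was annotated for Postn, at 54359267, whose window held no motif match and is not shown. Another for Tnc, at 64046936, had TATAAA 205 and GGGCGG 246 bases before it and an overlapping exon, and is likewise not shown. No annotated exon overlapped the windows shown, and capitals mark the motif matches described after them.
Tnc: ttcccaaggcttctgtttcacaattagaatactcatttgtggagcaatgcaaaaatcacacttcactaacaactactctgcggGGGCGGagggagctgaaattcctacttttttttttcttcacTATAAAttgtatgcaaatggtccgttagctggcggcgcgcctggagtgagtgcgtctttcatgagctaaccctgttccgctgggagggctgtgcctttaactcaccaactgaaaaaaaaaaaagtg
Postn: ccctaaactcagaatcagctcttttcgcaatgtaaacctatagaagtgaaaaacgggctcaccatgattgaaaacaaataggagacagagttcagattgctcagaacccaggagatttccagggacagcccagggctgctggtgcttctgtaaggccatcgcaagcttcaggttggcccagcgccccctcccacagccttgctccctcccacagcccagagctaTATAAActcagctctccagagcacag
Thbs2: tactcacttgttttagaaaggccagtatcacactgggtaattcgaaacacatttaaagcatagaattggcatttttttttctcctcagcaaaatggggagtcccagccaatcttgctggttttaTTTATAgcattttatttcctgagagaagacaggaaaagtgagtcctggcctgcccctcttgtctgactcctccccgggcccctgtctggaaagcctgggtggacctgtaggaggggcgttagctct
Vcan: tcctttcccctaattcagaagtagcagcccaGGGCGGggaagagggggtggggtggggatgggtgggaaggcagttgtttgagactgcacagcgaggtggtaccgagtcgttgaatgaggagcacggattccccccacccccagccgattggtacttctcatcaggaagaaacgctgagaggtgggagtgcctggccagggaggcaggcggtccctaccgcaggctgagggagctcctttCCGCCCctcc

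These windows were searched on both strands for TATAAA (the core promoter box of that name), TGANTCA (an AP-1 element), GGAATG (a TEAD element), GGGCGG (a GC box) and the CArG box by name, which 12.4%, 6.75%, 12.6%, 32.7% and 1.47% of the 32851 promoters in the table held over the same 250 bases. Postn had TATAAA beginning 26 bases before its start, and Tnc had it 126 bases before, together with GGGCGG 167 bases before. Thbs2 had TATAAA on the opposite strand 126 bases before its start, and Vcan had GGGCGG at 219 bases and, on the opposite strand, at 10 bases before. The AP-1, TEAD and CArG elements were not found in these 4 windows, which says only that those letters are absent from them. The matches are a description of the sequence and were not tied to the RNA levels.

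Tnc (chromosome 4, 63959785 to 64047015, minus strand), a hexameric glycoprotein of developing and injured arterial media, stood furthest above the lymphoid level in the Mmp13 Tnfrsf11b cluster and in smooth muscle-like nuclei. In the Mmp13 Tnfrsf11b cluster it stood at 757 CPM (694 to 824), 127 CPM (118 to 137), 263 CPM (220 to 313) and 293 CPM (261 to 327), which was 90.5, 2.67, 15.4 and 14.0 times the lymphoid level. Smooth muscle-like nuclei followed with 137, 79.2, 87.3 and 82.3 CPM, or 16.3, 1.66, 5.1 and 3.95 times the lymphoid level. In both groups of nuclei the untreated library was the highest. Lymphatic endothelial-like nuclei of the untreated library had 80.8 CPM. In the other 3 main classes Tnc was near or under the lymphoid level, at 7.71, 42.4, 15.6 and 18.0 CPM in fibroblast-like nuclei, 7.03, 37.5, 14.0 and 12.2 CPM in endothelial-like nuclei and 19.1, 40.8, 16.0 and 13.5 CPM in macrophage-like nuclei. The exception was the macrophage-like class of the untreated library, at 2.28 times its lymphoid level.

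Postn (chromosome 3, 54361109 to 54391037, plus strand), which encodes a collagen-organising integrin ligand, was higher in smooth muscle-like nuclei than in the other 3 main classes. It stood there at 423 CPM (386 to 462), 173 CPM (145 to 206), 186 CPM (168 to 204) and 309 CPM (290 to 329), or 16.4, 4.31, 3.61 and 6.58 times the lymphoid level. The untreated library was highest and the MTZ-simultaneous library next, with no overlap between their intervals and those of the high-fat and MTZ-after libraries. The share of smooth muscle-like nuclei with a Postn UMI had the same order, 18.9%, 8.01%, 8.23% and 12.4% when thinned to 500 UMIs and 40.4%, 15.5%, 15.5% and 32.0% without thinning. In the Mmp13 Tnfrsf11b cluster Postn was 306, 88.5, 92.6 and 110 CPM, in fibroblast-like nuclei 35.8, 109, 69.9 and 72.1 CPM, and in lymphoid nuclei 25.7, 40.2, 51.4 and 47.0 CPM.

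Sparc (chromosome 11, 55394500 to 55423183, minus strand), a calcium-binding collagen chaperone, was spread over the vascular classes. It stood at 184, 234, 207 and 214 CPM in smooth muscle-like, 236, 294, 242 and 297 CPM in fibroblast-like and 240, 357, 251 and 294 CPM in endothelial-like nuclei, and at 574, 337, 504 and 509 CPM in the Mmp13 Tnfrsf11b cluster. Macrophage-like nuclei had less, 63.1, 203, 123 and 121 CPM, in each library under the lymphoid level of 125, 240, 177 and 201 CPM. In the high-fat library the smooth muscle level, at 0.973 times the lymphoid one, was not above it.

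Vcan (chromosome 13, 89655312 to 89742509, minus strand), the large proteoglycan that binds hyaluronan, was highest among the 4 main classes in fibroblast-like nuclei, at 208, 206, 234 and 178 CPM. That was 5.38, 2.94, 4.24 and 2.38 times the lymphoid level, and the share of thinned fibroblast-like nuclei with a Vcan UMI lay between 7.6% and 8.6% in all libraries. Smooth muscle-like nuclei had 60.9, 71.2, 61.4 and 85.8 CPM, and endothelial-like nuclei 59.2, 75.6, 53.5 and 84.9 CPM. Lymphoid nuclei had 38.6, 70.1, 55.2 and 75.0 CPM. In the high-fat library the smooth muscle and endothelial levels were 1.02 and 1.08 times the lymphoid one. The Mmp13 Tnfrsf11b cluster was at 200, 113, 333 and 168 CPM, with the MTZ-after library highest. A separate cluster led by Ddah1 and Edn1 had 206, 91.0, 81.8 and 98.8 CPM. In the untreated library that was 5.33 times the lymphoid level.

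Spon1 (chromosome 7, 113765998 to 114043370, plus strand), a secreted protein related to the thrombospondins by its type 1 repeats, had an endothelial pattern. Endothelial-like nuclei stood at 749, 695, 389 and 791 CPM and held 45.6%, 6.69%, 17.9% and 42.9% of all Spon1 counts of their library. The class consisted of 2 clusters in different proportions: 1 of them held 73.9%, 81.9%, 33.5% and 86.2% of its nuclei and had Spon1 at 878, 731, 618 and 843 CPM, and the other had 172, 409, 206 and 204 CPM. The low class level of the MTZ-after library went with a larger part of the second cluster. The Ddah1 Edn1 cluster had Spon1 at 716, 475, 486 and 469 CPM. All 12 endothelial markers were above the other nuclei there, but none by 2-fold. Lymphoid nuclei were at 156, 254, 232 and 257 CPM, and the Mmp13 Tnfrsf11b cluster, at 113, 302, 198 and 268 CPM, was close to them.

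The effect of high-fat food was examined by comparing the high-fat with the untreated library. Over the 8 members in the 4 main classes, 15 of 32 pairs of gene and class were called higher and 1 lower, with 30 having enough counts for a call. In smooth muscle-like nuclei 2 members were called higher, against 3.78% of all genes tested in that class, and 1 lower, against 4.42%. The corresponding counts were 3 members higher in fibroblast-like nuclei, against 2.91% of genes, 2 in endothelial-like nuclei, against 0.568%, and all 8 in macrophage-like nuclei, against 10.8%. No member was called lower in those 3 classes, where 3.43%, 3.15% and 1.16% of genes were. Most of these higher calls ended at a level close to that of the lymphoid nuclei of the high-fat library, and lymphoid nuclei moved with them. In T or NK-like nuclei 2 of 4 tested members were called higher, against 1.45% of genes (Thbs1 4.04-fold, Fn1 2.98-fold), and none lower, against 5.98%. In B-like nuclei all 5 tested members were called higher, where 293 of 3723 genes were, and none lower, where 161 were. The ratios there were 3.04 for Thbs1, 3.48 for Fn1, 2.17 for Sparc, 2.56 for Vcan and 2.43 for Spon1. In brown adipocyte-like nuclei 6 of 8 members were called higher, where 201 of 14294 genes were, and none lower, where 781 were. In adipocyte-like nuclei 5 of 7 tested members were called higher, where 1015 of 8424 genes were, and none lower, where 263 were. How far free RNA enters the class ratios was not tested beyond subtracting the lymphoid level, which left 2 higher and 5 lower calls among the 15 pairs that then had a value.

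Thbs1 was the only member called higher in all 4 classes, by 2.73-fold (2.15 to 3.49) in smooth muscle-like, 4.23-fold (3.59 to 4.99) in fibroblast-like, 3.08-fold (2.78 to 3.41) in endothelial-like and 4.01-fold (3.56 to 4.52) in macrophage-like nuclei. The endothelial call was kept under each of the 12 alternative settings that gave it a value, including the subtraction of the lymphoid level, at 2.29 to 4.38-fold. Fn1 was called higher in smooth muscle-like nuclei (2.19-fold, 1.98 to 2.42) and in macrophage-like nuclei (3.77-fold, 3.56 to 3.99), and was 1.97-fold higher in endothelial-like and 1.24-fold higher in fibroblast-like nuclei without a call. Subtracting the lymphoid level turned the smooth muscle ratio of Fn1 to 0.799. Over all nuclei, 3 members were called higher, against 6.49% of genes, and none lower, against 7.31%: Thbs1 by 3.84-fold (3.72 to 3.97), Fn1 by 2.87-fold (2.83 to 2.91) and Tnc by 2.18-fold (2.04 to 2.33).

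Tnc and Postn went opposite ways in different nuclei of the same 2 libraries. Postn was lower in smooth muscle-like nuclei of the high-fat library, by a ratio of 0.41 (0.335 to 0.499), and higher in fibroblast-like nuclei, by 3.05-fold (2.43 to 3.83). Tnc was called higher in fibroblast-like nuclei, by 5.49-fold (3.56 to 8.61), and in endothelial-like nuclei, by 5.33-fold (3.62 to 7.81), yet in both classes its high-fat level was under that of the lymphoid nuclei, at 0.889 and 0.785 times it. In smooth muscle-like nuclei its ratio was 0.58 without a call. The Postn call in smooth muscle-like nuclei was lost in 4 of 12 alternatives. The Tnc calls in fibroblast-like and endothelial-like nuclei were lost in 6 and 4 of 11. The Postn call in fibroblast-like nuclei was kept in 10 of 12, with ratios down to 1.23. In the high-fat library, 1 fibroblast-like nucleus held 63 of the 160 Postn counts of its class. Likewise, 1 endothelial-like nucleus held 18 of the 51 Tnc counts of its class.

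**Figure D3:**
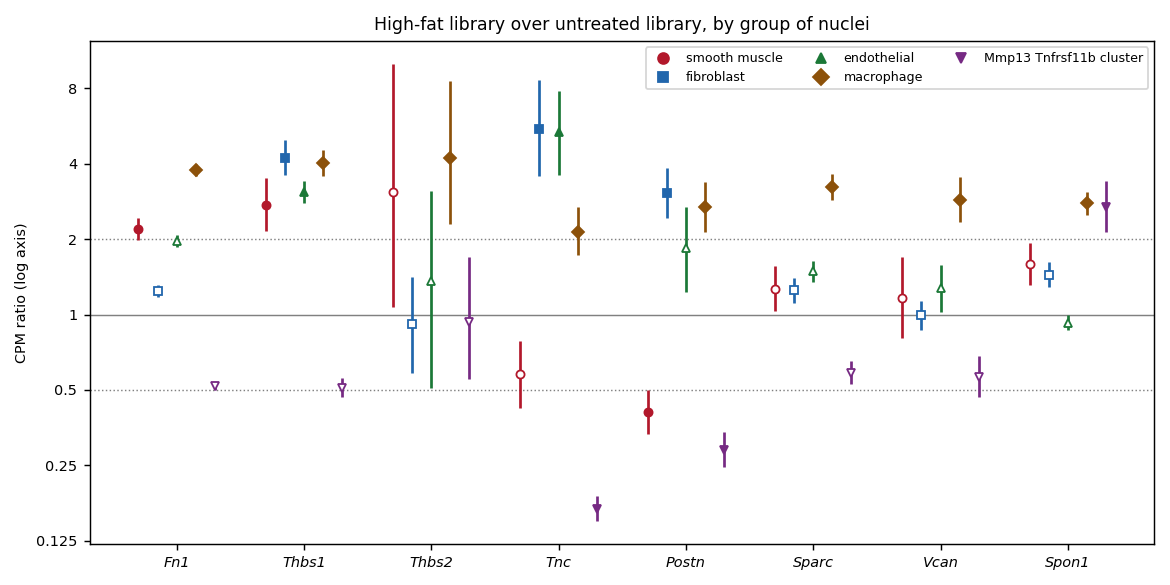
CPM ratio of the high-fat to the untreated library for each gene in each class, on a log axis, with exact 95% intervals for counting error only; filled symbols are called and dotted lines mark ratios of 2 and 0.5. Thbs1 is above 2 in all 4 main classes, whereas Postn is at 0.41 in smooth muscle-like nuclei and Tnc at 0.168 in the Mmp13 Tnfrsf11b cluster.

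Among the 4 main classes, macrophage-like nuclei showed the broadest difference, with member ratios from 2.14 (Tnc) to 4.2 (Thbs2, on 204 against 11 counts). Their levels lay between 0.845 and 1.16 times the lymphoid level in the high-fat library, and Postn was the only member above it. The class was also made of different clusters: the cluster that held 25.6% of it in the untreated library held 68.1% in the high-fat library, and another held 58.7% and 31.5%. Within the latter cluster alone, Fn1 was at 256 and 908 CPM and Thbs1 at 57.9 and 214 CPM in the untreated and high-fat libraries, which is a difference of similar size to that of the whole class.

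The additional Fn1, Thbs1 and Tnc of the high-fat library lay in 3 populations that were larger in it. Of the difference of 892 CPM in Fn1 over all nuclei, macrophage-like nuclei accounted for 51.0%, the Ddah1 Edn1 cluster for 35.0% and the Mmp13 Tnfrsf11b cluster for 32.0%, while brown adipocyte-like nuclei accounted for -13.4%. For Thbs1 the same 3 populations accounted for 48.1%, 35.4% and 20.6% of the difference, and for Tnc for 62.8%, 28.6% and 26.0%. They held 7.3%, 0.609% and 1.08% of UMIs in the untreated and 45.3%, 21.4% and 12.0% in the high-fat library. In the high-fat library macrophage-like nuclei had Fn1, Thbs1 and Tnc at 0.968, 0.95 and 0.857 times the lymphoid level. The Ddah1 Edn1 cluster had them at 1.36, 1.44 and 0.78 times it, and the Mmp13 Tnfrsf11b cluster at 2.66, 1.79 and 2.67 times. How far free RNA enters these shares was not tested. When the 19 clusters with enough nuclei in both libraries were given equal weight in the 2 libraries, the high-fat ratio of Thbs1 became 1.82, that of Fn1 1.43 and that of Tnc 0.628. The ratio of Postn went from 1.51 to 0.974. These equal-mixture values cover 88.4% of the untreated UMIs and follow the clusters with the highest levels, since Tnc was higher in the high-fat library in 15 of the 19 clusters, and Postn in 14.

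**Figure D4:**
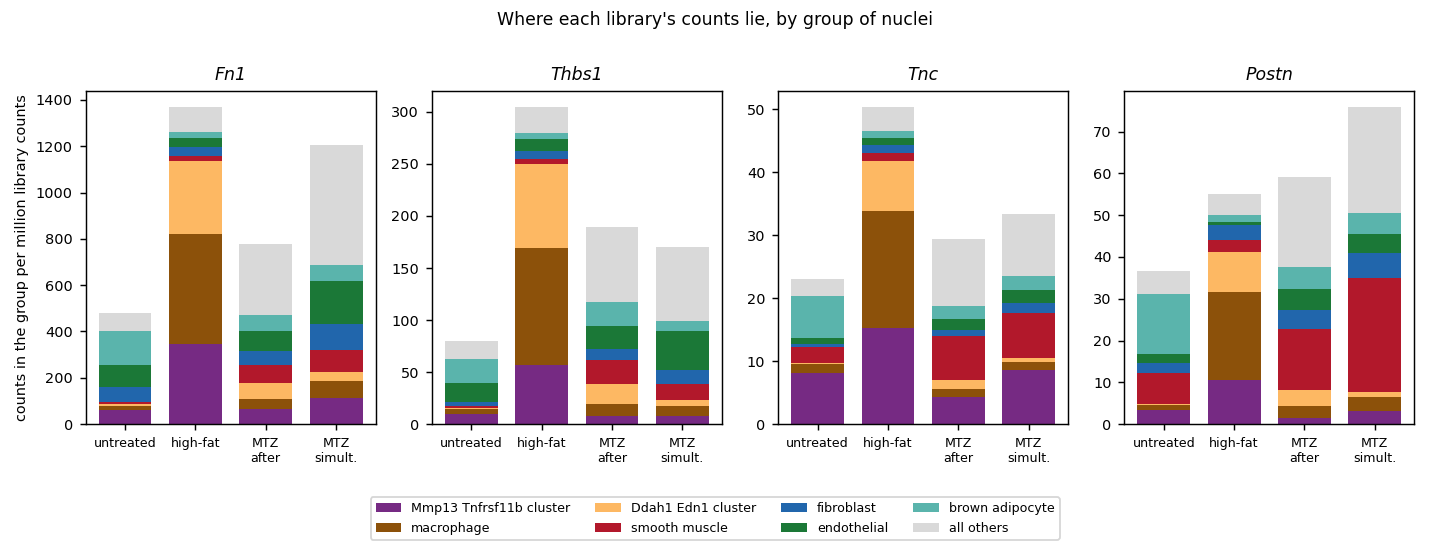
Part of each library's level of Fn1, Thbs1, Tnc and Postn that lies in each group of nuclei, as stacked bars in CPM of the whole library. The macrophage-like, Ddah1 Edn1 and Mmp13 Tnfrsf11b parts are larger in the high-fat than in the untreated library for Fn1, Thbs1 and Tnc.

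The Mmp13 Tnfrsf11b cluster, in which Fn1, Thbs1 and Tnc were above their levels in the 4 main classes, made up 0.65%, 6.52%, 1.05% and 1.98% of nuclei and 1.08%, 12.0%, 1.66% and 2.95% of UMIs. It had 6 of 14 fibroblast markers and 3 of 8 pericyte markers at least 2-fold above the other nuclei and none of 12 smooth muscle markers, and the pericyte marker Higd1b was at 0. The other 8 fibroblast markers were not above the other nuclei (median fold of the list 0.836), whereas 9 of the 12 smooth muscle markers were above them by less than 2-fold (median 1.16). Its Col1a1 was 1900, 1370, 2200 and 1560 CPM and its Lum 559, 428, 794 and 364 CPM, whereas Mmp13, a collagenase, was 40.1, 151, 24.7 and 0.95 CPM. It held 12.6%, 25.2%, 8.2% and 9.36% of the Fn1 counts of each library and 35.4%, 30.3%, 14.9% and 25.9% of the Tnc counts. The Fn1, Tnc and Thbs1 counts were concentrated in few nuclei: in the untreated library the top 10%, 14 of 135 nuclei, held 75.7%, 83.4% and 79.9% of them, and a single nucleus held up to 717 Fn1 counts. In the high-fat library the top 10%, 229 of 2288 nuclei, held 48.7%, 68.1% and 57.4%.

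Within this cluster, Tnc was called lower in the high-fat than in the untreated library, at a ratio of 0.168 (0.15 to 0.189), and Postn at 0.289 (0.246 to 0.341), against 1.55% of genes called lower. Spon1 was called higher, by 2.68-fold (2.13 to 3.40), against 9.79% of genes called higher. Fn1 had a ratio of 0.518 and Thbs1 of 0.51, and neither was called. Tnc kept its call in 11 of 12 alternatives, with ratios from 0.106 to 0.483, and Postn also in 11 of 12. Spon1 kept its call in only 7 of 11, with ratios from 1.29 to 4.17. Alternatives with a new clustering used the cluster sharing most nuclei with this one, so they did not follow the same nuclei. That matching cluster held 48.5% to 90.2% of the nuclei of the main one, which made up 13.5% to 83.6% of it. With another seed they made up 43.8% of 5240 nuclei. The levels depended on how the nuclei were clustered: with a Leiden resolution of 2, Fn1 in the matching cluster was 7339, 5101, 4624 and 5331 CPM and Tnc 1054, 235, 308 and 398 CPM. With the libraries centred, Fn1 was 4701, 4589, 4189 and 4776 CPM and Thbs1 841, 659, 435 and 277 CPM, so Fn1 then hardly differed between the untreated and high-fat libraries.

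The effect of MTZ was examined by comparing each MTZ library with the high-fat library, so the 2 comparisons share that library. Over all nuclei no member was called in either one. Of all genes tested, 13.6% were called higher and 2.55% lower in the MTZ-after library, and 8.01% and 2.41% in the MTZ-simultaneous library. Thbs1 had ratios of 0.622 (0.602 to 0.641) and 0.558 (0.541 to 0.575) in MTZ-after and MTZ-simultaneous, Fn1 0.569 (0.561 to 0.578) and 0.88 (0.869 to 0.891), and Tnc 0.585 (0.54 to 0.633) and 0.662 (0.617 to 0.71). Postn was 1.08 (1.01 to 1.14) and 1.38 (1.31 to 1.46). With the mixture of clusters made equal, Fn1 had ratios of 0.759 and 1.04 and Thbs1 0.738 and 0.6, over clusters that held 68.7% and 97.6% of the UMIs of the MTZ libraries.

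Within the 4 main classes, 5 of 32 pairs were called lower and 0 higher in the MTZ-after library, and 4 lower and 0 higher in the MTZ-simultaneous library, with 29 pairs having enough counts in each. The shares of all genes called higher in the smooth muscle-like, fibroblast-like, endothelial-like and macrophage-like classes were 4.31%, 3.21%, 8.93% and 1.33% (MTZ-after) and 3.68%, 2.58%, 4.09% and 0.746% (MTZ-simultaneous). The calls fell on Tnc and the thrombospondins. Tnc was called lower in fibroblast-like nuclei at ratios of 0.368 (MTZ-after, 0.914% of genes called lower) and 0.426 (MTZ-simultaneous, 0.848%), in endothelial-like nuclei at 0.375 (0.805%) and 0.326 (0.304%), and in macrophage-like nuclei at 0.392 (2.37%) and 0.331 (3.93%). Thbs1 was called lower in endothelial-like nuclei of the MTZ-after library, at 0.458 (0.408 to 0.515), a call kept in 3 of 11 alternatives, and in macrophage-like nuclei of the MTZ-simultaneous library, at 0.451 (0.404 to 0.502). The endothelial-like class lay mainly in 1 cluster in the high-fat library (81.9% of its nuclei) that held 33.5% of it in the MTZ-after library. Of the 51 Tnc counts of this class in the high-fat library, 18 came from 1 nucleus. Thbs2 was called lower in macrophage-like nuclei of the MTZ-after library, at 0.398 on 9 against 204 counts. No member was called in smooth muscle-like nuclei, where 0.591% and 0.668% of genes were lower, and Postn was 1.79-fold higher in the MTZ-simultaneous library without a call. Thbs1 in T or NK-like nuclei had ratios of 0.556 and 0.374, the latter called lower against 1.57% of genes, so the lymphoid level differed in the same direction. In those nuclei only 4 of the 8 members had enough counts in each comparison, and Tnc was not among them. No other tested member was called, with 3.21% and 3.06% of genes higher in the 2 comparisons and 2.39% lower in the MTZ-after one. Lymphoid Tnc was at 47.7, 17.1 and 20.8 CPM in the high-fat, MTZ-after and MTZ-simultaneous libraries, on 51, 9 and 35 counts. Among these calls, only Tnc in macrophage-like nuclei of the MTZ-simultaneous library was kept under all 11 alternatives with a value, at 0.261 to 0.485, and in both libraries of that pair it was under the lymphoid level.

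In the Mmp13 Tnfrsf11b cluster Tnc was called in the opposite direction to those classes. It was called higher in the MTZ-after library, by 2.07-fold (1.70 to 2.50), and in the MTZ-simultaneous library, by 2.30-fold (2.0 to 2.63), and Vcan in the MTZ-after library, by 2.95-fold (2.46 to 3.51). Of all genes in the cluster, 0.443% and 1.15% were called higher and 5.38% and 4.09% lower in the 2 comparisons. The Tnc calls were lost in 8 and in 4 of 12 alternatives, and the Vcan call in 3 of 12. The other members were not called: Thbs1 had ratios of 0.974 and 0.56, Spon1 of 0.653 and 0.886 and Fn1 of 1.33 and 1.32. The Fn1 difference of the MTZ-after library changed direction in the matching cluster with Leiden resolution 2 (4624 against 5101 CPM), the stricter filter on nuclei (4887 against 5345 CPM) and the libraries centred, and that of the MTZ-simultaneous library did so with the stricter filter (5040 CPM).

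**Figure D5:**
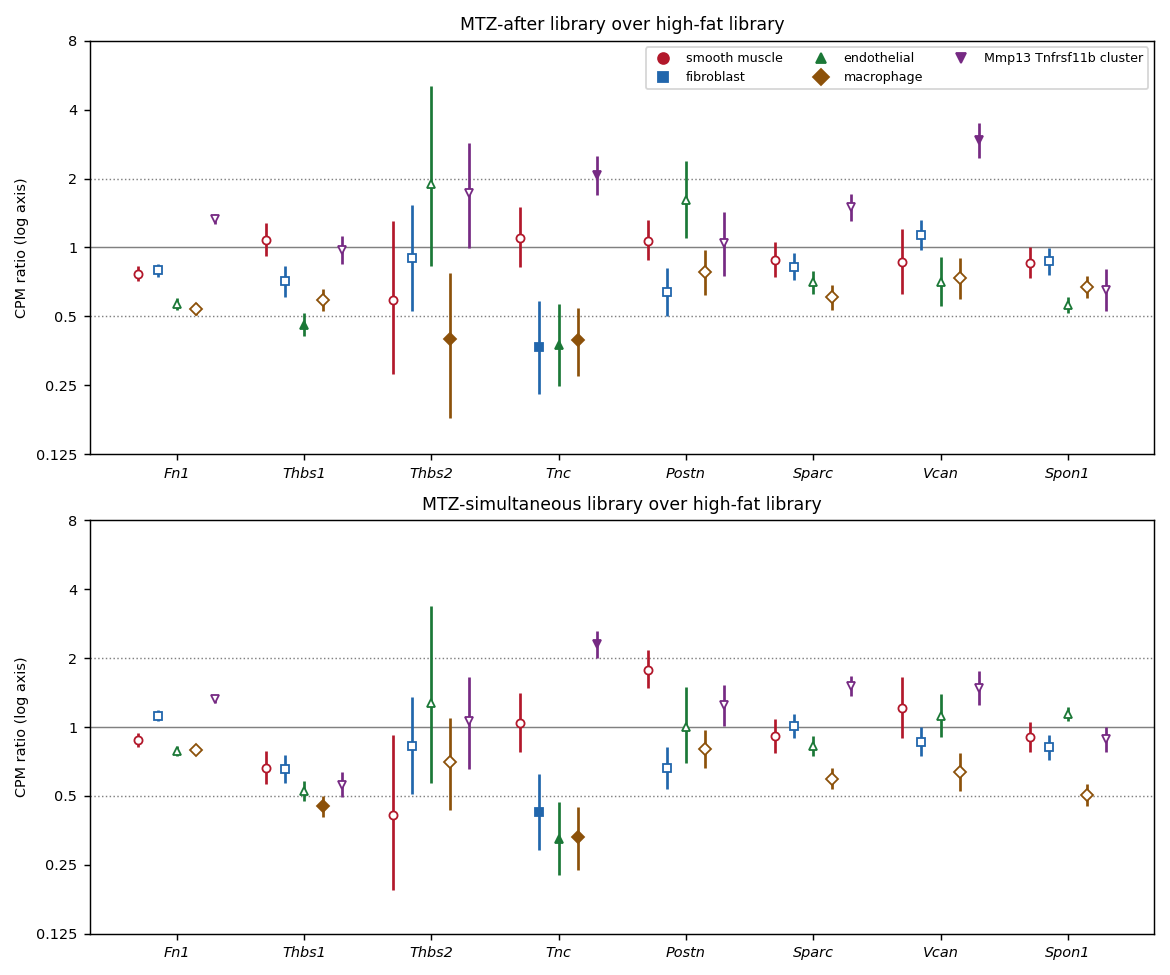
CPM ratio of each MTZ library to the high-fat library for each gene in each class, on a log axis, with exact 95% intervals for counting error only; filled symbols are called and dotted lines mark ratios of 2 and 0.5. Tnc is under 0.5 in fibroblast-like, endothelial-like and macrophage-like nuclei and above 2 in the Mmp13 Tnfrsf11b cluster in both comparisons, which share the high-fat library.

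Other genes of the same matrix network were described from lists of further matricellular genes, receptors, hyaluronan and versican partners, processing enzymes and upstream signals. Among the other matricellular genes, 3 of 13 tested were called higher in smooth muscle-like nuclei of the high-fat against the untreated library and none lower, 2 of 18 higher and 3 lower in fibroblast-like, 2 of 17 higher and none lower in endothelial-like, and 13 of 21 higher and none lower in macrophage-like nuclei. The median log2 ratios of the list were 0.01, -0.26, 0.26 and 1.10, beside 0.03, 0.07, 0.04 and 0.10 for all genes tested. Of all genes tested, 3.78%, 2.91%, 0.568% and 10.8% were called higher in these classes and 4.42%, 3.43%, 3.15% and 1.16% lower. These shares also stand beside the receptor, hyaluronan, processing and upstream counts of this comparison below. In T or NK-like nuclei 4 of 11 tested list genes were called higher and 1 lower, against 1.45% and 5.98% of genes. In B-like nuclei 6 of 9 were higher, where 293 of 3723 genes were, and none lower, where 161 were. In adipocyte-like nuclei 8 of 14 were higher, where 1015 of 8424 genes were, and none lower, where 263 were. In brown adipocyte-like nuclei 3 of 20 were higher, where 201 of 14294 genes were, and none lower, where 781 were. The part of free RNA was not tested. Spp1, which encodes osteopontin, was at 341, 2084, 741 and 507 CPM in smooth muscle-like nuclei and called higher by 6.11-fold in the high-fat library, but T or NK-like nuclei, at 428, 2220, 887 and 897 CPM, stood at or above those levels in every library. Slit2, a guidance ligand, was at 142, 557, 128 and 218 CPM in endothelial-like nuclei, 3.93-fold higher, with 94.9, 144, 107 and 40.4 CPM in T or NK-like nuclei. In fibroblast-like nuclei Efemp1, the elastic-fibre protein fibulin 3, was at 273, 99.1, 220 and 240 CPM and called lower at 0.363, and Fbln1 was called lower at 0.34.

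Of the receptor genes, 2 of 21 were called higher and 2 lower in smooth muscle-like nuclei, 4 of 24 higher in fibroblast-like, 2 of 23 higher in endothelial-like and 6 of 25 higher in macrophage-like nuclei of the high-fat library, with no lower call in the last 3 classes. Itga8, an integrin chain that binds fibronectin and tenascin C and is a smooth muscle marker, was at 1753, 765, 824 and 1268 CPM in smooth muscle-like nuclei, with a ratio of 0.437. It had the same order of libraries there as Postn. Other smooth muscle markers, Myh11 at 1800, 1000, 1270 and 2370 CPM and Acta2 at 1130, 726, 805 and 1490 CPM, were also lowest in the high-fat library. They were highest in the MTZ-simultaneous library. Cd44, the hyaluronan receptor, was at 94.8, 219, 163 and 128 CPM in the same class, 2.31-fold higher in the high-fat library, and at 200, 317, 186 and 219 CPM in T or NK-like nuclei. The hyaluronan list had 4 genes tested in fibroblast-like nuclei, of which Cemip was called higher (7.43-fold) and 3 were called lower, among them Has2 (0.27) and Tnfaip6 (0.256). In macrophage-like nuclei 5 of 9 tested were called higher, among them Cemip (14.9-fold), and 2 lower, among them Hapln3 (0.392). Of 2 tested in endothelial-like nuclei none was called, and none had enough counts in smooth muscle-like nuclei. Cemip, which degrades hyaluronan, was at 897, 355, 405 and 437 CPM in the Mmp13 Tnfrsf11b cluster and at 9.75, 72.4, 6.99 and 14.0 CPM in fibroblast-like nuclei, beside 4.65, 47.0, 3.16 and 2.13 CPM in T or NK-like nuclei.

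Processing enzymes were called higher for 1 and lower for 1 of 10 genes in smooth muscle-like nuclei of the high-fat library, higher for 1 and lower for 2 of 16 in endothelial-like nuclei, and lower for 4 and higher for none of 17 in fibroblast-like nuclei, among them Fap (0.357) and Adamts1 (0.401), a protease that cleaves versican. In macrophage-like nuclei 10 of 18 were called higher, against 10.8% of genes, and none lower, with Lox at 3.23-fold and Mmp2 at 3.34-fold. In B-like nuclei 3 of 5 tested were called higher and 1 lower, against 293 and 161 of 3723 genes. In T or NK-like nuclei none of 4 tested was called. How far free RNA enters these calls was not tested. Of the upstream signals, 1 of 14 was called higher in smooth muscle-like nuclei, Runx2 by 2.04-fold, and 1 of 18 was called lower in fibroblast-like nuclei. None of 18 was called in endothelial-like nuclei, and 6 of 20 were called higher in macrophage-like nuclei. In T or NK-like nuclei 1 of 13 was called higher, against 1.45% of genes, and none lower, against 5.98%. In B-like nuclei 1 of 12 was called higher and 1 lower. In adipocyte-like nuclei 3 of 16 were called higher, where 1015 of 8424 genes were, and none lower, where 263 were.

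In the MTZ-after against the high-fat library, the other matricellular genes were called higher and lower for 1 and 2 of 15 genes in smooth muscle-like, 3 and 1 of 17 in fibroblast-like, 6 and 1 of 15 in endothelial-like and 1 and 2 of 21 in macrophage-like nuclei. In these classes 4.31%, 3.21%, 8.93% and 1.33% of all genes were called higher and 0.591%, 0.914%, 0.805% and 2.37% lower. Spp1 was called lower in smooth muscle-like nuclei at 0.356 and in fibroblast-like nuclei at 0.339, and Slit2 in endothelial-like nuclei at 0.23. T or NK-like nuclei, whose Spp1 levels are given above, also had less Spp1 in both MTZ libraries than in the high-fat library. In those nuclei 3 of 6 tested genes of the list were called lower in the MTZ-after library, against 2.39% of genes, and none higher, against 3.21%. The 6 higher calls in endothelial-like nuclei included Smoc2 at 4.24-fold and Slit3 at 3.23-fold. They came beside higher calls for 5 of 5 genes of a list of fat, mesothelial and adrenal markers in that class. The part of such RNA in them was not tested. That class also lay mainly in 1 cluster in the high-fat library (81.9% of its nuclei) that held 33.5% of it in the MTZ-after library. The part of this change of clusters in the Slit2, Smoc2 and Slit3 ratios was not tested. In the MTZ-simultaneous library the matricellular list had 2 higher and 1 lower of 19, 3 and 1 of 19, 3 and 2 of 16, and 1 and 3 of 21 in the same order of classes. Of all genes, 3.68%, 2.58%, 4.09% and 0.746% were called higher there and 0.668%, 0.848%, 0.304% and 3.93% lower. Spp1 was at 0.243 in smooth muscle-like and 0.315 in fibroblast-like nuclei. In T or NK-like nuclei 1 of 8 tested genes of the list was called higher, against 3.06% of genes, and 2 lower, against 1.57%. How far free RNA enters the Spp1 ratios was not tested. In the same library Itga5, the chain of the classical fibronectin receptor, was 2.09-fold higher in smooth muscle-like nuclei at 366 against 175 CPM.

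The genes whose levels most resembled each member were taken by Pearson correlation of log2(CPM + 1) over 40 points, 10 classes in 4 libraries, which share libraries and depth and are no independent samples. Postn went with Cacna1c (r = 0.949), Dmd (0.946) and Ctnna3 (0.937), and Spon1 with Gxylt2 (0.957), Tmtc2 (0.952) and Slco2a1 (0.95). Sparc went with Casp12 (0.932), Col5a2 (0.928) and Hspg2 (0.927), and Thbs2 with Col1a2 (0.882), Mmp3 (0.839) and Col3a1 (0.831). For Tnc the closest were Ccn2 (0.82), Acta2 (0.755) and Tpm1 (0.753), and for Fn1 they were Mmp2 (0.792), Bgn (0.788) and Fkbp10 (0.784). Thbs1 was closest to Hif1a (0.821), and Vcan to Plxdc2 (0.82). Among the members themselves, the highest correlations over these points were 0.813 for Sparc and Spon1, 0.761 for Fn1 and Sparc, 0.759 for Thbs1 and Fn1, and 0.718 for Tnc and Postn.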

How the data were processed

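Nuclei were isolated from aorta and captured as droplet libraries, 1 per group. The authors deposited whole-number UMI counts per gene and barcode, made with Cell Ranger 7.0.1, per the file headers. The submitters' processing notes also name STAR and mm10, and strand use is not given in the sources used here. Thbs1, Fn1, Tnc and Vcan overlap genes on the other strand. Nuclei with under 300 genes or over 10% mitochondrial counts were dropped (23 to 98 per library), as were those with the highest 8% of Scrublet scores (7.01% to 7.66% removed, ties kept), because the automatic threshold marked at most 0.00519% and had not worked. Counts were scaled to 10000 per nucleus and logged, and 2000 variable genes, without the members and the lists of partner genes, were scaled to unit variance. A graph of 20 neighbours on 30 principal components was divided by Leiden at resolution 1 (Python 3.11.15, scanpy 1.11.5, leidenalg 0.10.2, igraph 0.11.9, numpy 2.4.6, scipy 1.17.1, matplotlib 3.10.9). A cluster was named when at least 3 markers of a class were 2-fold above the other nuclei, with no rival class, by a rule set after clusters had been seen. 4 of 24 clusters stayed unnamed, and rebuilt names may differ from those of the study. Counts of a gene were summed per library and class and divided by the sum over all genes, and a call needed a ratio of 2 or 0.5 and 50 counts. Intervals were exact (Poisson for CPM, conditional binomial for ratios) and cover counting error only. The calling script was tested on simulated data. All 8 members are named, with up to 2 called genes per direction of each list with the interval bound farthest from 1, and the 3 most correlated genes per member. Other seeds, resolutions, filters, scalings (edgeR 4.0.16 TMM factors in R 4.3.3), thinning to 500 UMIs and subtraction of the lymphoid level were tried as alternatives. Members and lists were chosen with earlier results of these data known.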

Additional observations from a re-analysis of the deposited data

Results flagged for a closer look

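Tnc and Postn went opposite ways in different groups of nuclei taken from the same pair of libraries, and the difference between those groups was not tested. In the high-fat against the untreated library, Tnc had ratios of 5.49 in fibroblast-like, 5.33 in endothelial-like and 2.14 in macrophage-like nuclei, but 0.168 in the Mmp13 Tnfrsf11b cluster. Postn had ratios of 3.05 in fibroblast-like and 2.67 in macrophage-like nuclei, but 0.41 in smooth muscle-like nuclei and 0.289 in the Mmp13 Tnfrsf11b cluster. In the MTZ-after against the high-fat library, Tnc had ratios of 0.368, 0.375 and 0.392 in fibroblast-like, endothelial-like and macrophage-like nuclei and 2.07 in the Mmp13 Tnfrsf11b cluster. In the MTZ-simultaneous against the high-fat library, the corresponding Tnc ratios were 0.426, 0.326 and 0.331, and 2.30 in the cluster. The 3 comparisons share the high-fat library. In that library the Tnc levels of the 3 classes were 0.785 to 0.889 times the lymphoid level. There, 1 nucleus held 18 of the 51 Tnc counts of endothelial-like nuclei, and 1 held 63 of the 160 Postn counts of fibroblast-like nuclei.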

How the results depend on the processing

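No paired analysis was possible because each group was 1 library. The 15 higher calls in the high-fat library became 10 when nuclei were thinned to 500 UMIs and 2 when the lymphoid level was subtracted, and the 1 lower call became 2 with another seed, 0 with Leiden resolution 2, 0 with libraries centred and 5 with the lymphoid level subtracted. Of the MTZ-after calls, 0 higher became 1 with libraries centred and 2 with the lymphoid level subtracted. The 5 lower became 1 with another seed, 3 with each nucleus of equal weight, and 2 without doublet scores, with libraries centred, with the members among the variable genes, with variable genes not scaled and with thinning. Of the MTZ-simultaneous calls, 0 higher became 1 with the lymphoid level subtracted, and the 4 lower became 1 with another seed and 2 with equal weight, with thinning and with the lymphoid level subtracted. The Fn1 ratio in smooth muscle-like nuclei, high-fat against untreated, went from 2.19 to 0.799 with the lymphoid level subtracted. The cause of these changes was not tested. Of the other single ratios, 988 stayed within their interval and 393 moved. TMM factors moved the median of all genes by -0.12 to -0.09 (log2) in the high-fat against the untreated library, and every member call of that comparison kept its count. Unscaled variable genes and the cluster followed through other clusterings were chosen after seeing the data. The automatic Scrublet threshold was not run as a separate alternative, since it removes almost no nuclei. With 1 library per group, differences between mice and between libraries cannot be told apart from those between groups, and levels in classes of few nuclei, such as the 135 of the untreated Mmp13 Tnfrsf11b cluster, rest on few nuclei of high counts.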

Other observations

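The Ddah1 Edn1 cluster, also unnamed, had Fn1 at 2.13, 1.36, 1.57 and 1.83 times the lymphoid level. Its Thbs1 was at 2.19, 1.44, 1.42 and 1.92 times that level. A further unnamed cluster also had Fn1 and Thbs1 above the lymphoid level in every library. It was led by Vmn2r26, Padi4, Alox15, Serpinb2 and Prg4 and held 133 nuclei in the untreated, 137 in the high-fat, 366 in the MTZ-after and 1470 in the MTZ-simultaneous library, at median depths of 665, 721, 704.5 and 880 UMIs. Its Fn1 was at 4210, 2275, 2060 and 3800 CPM, beside 357, 1083, 624 and 867 CPM in lymphoid nuclei. Its Thbs1 was at 462, 468, 347 and 437 CPM, beside 76.5, 263, 198 and 130 CPM. Fn1 was thus highest in the untreated and MTZ-simultaneous libraries there, while Thbs1 differed less between the libraries. In the MTZ-simultaneous library its Fn1 level lay beside that of the Mmp13 Tnfrsf11b cluster, 3822 CPM.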
